A study of Mus musculus with 18 samples.

Results

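Genes that Schwann cells and other cells near an injured nerve use to support regrowing axons were followed in RNA-seq data from the denervated mouse whisker pad. The genes were *Gdnf*, *Artn*, *Btc*, *Bdnf*, *Ngfr*, *Gap43*, *Sox2*, *Olig1*, and *Runx2*, chosen by name and with earlier results of these data known. The level of each was the sum over its Ensembl transcripts. These are 9 of 35150 genes in the table. In 9 adult mice the facial nerve was cut on the right side, in its buccal and superior marginal branches, and the left side received a sham operation in which only the skin was opened and closed. Biopsies of skin and muscle were taken from both rostral whisker pads, 3 mice each at day 1, day 3, and day 7, which gave 18 samples in 6 groups of 3. The strain and genotype of these mice are not given in the sources used here. Every lesion was on the right, so side and lesion cannot be told apart. The sham side was wounded too, so the comparison is of nerve transection over skin incision and not of injured with untouched tissue. Mice are numbered 1 to 3 within a day, and the number carries no order.

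When a peripheral nerve is cut, the Schwann cells beyond the cut stop making myelin and turn into repair cells that clear debris, line up as tracks, and secrete survival factors. GDNF and artemin act through GFR-alpha coreceptors and the Ret kinase, BDNF acts through TrkB and the p75 receptor encoded by *Ngfr*, and betacellulin is a ligand of the EGF receptor family. In denervated muscle, muscle fibers and their stem cells also switch on genes of immature muscle, and *Gdnf* and *Bdnf* can be made by muscle and skin as well as by Schwann cells.

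The level of *Gdnf*, *Ngfr*, *Btc*, *Gap43*, *Runx2*, and *Olig1* was higher on the lesioned side than on the sham side of every mouse at day 3 and at day 7. By day 7 the ratio of mean levels, lesioned over sham, was 3.65 for *Olig1*, 3.38 for *Gap43*, 3.34 for *Gdnf*, 3.18 for *Ngfr*, 3.01 for *Btc*, and 1.89 for *Runx2*. Of these, *Olig1* and *Gap43* rested on few reads, an estimated 4 to 32 and 7 to 86 per sample over all days. The order of the ratios was not tested. *Sox2*, *Artn*, and *Bdnf* showed no such steady difference between the sides at day 3 and day 7. With limma on log2(TPM + 0.5) and p-values adjusted over all genes tested, 0 of the 9 passed the threshold of 0.05 at day 1 and 0 passed at day 3. The 2 that passed at day 7 were *Gdnf* and *Ngfr*, both higher. As background, 0% of all 14776 genes tested were called at day 1. This share was 1.45% of 14943 genes for day 3 and 1.53% of 15081 genes for day 7, where 1.01% were called as higher. At day 1, 634 genes had an unadjusted p under 0.05, and no gene in the table was called. Over all days together, with day as a covariate, 3 rose, *Gdnf*, *Gap43*, and *Btc*, where 3.1% of 14757 genes were called and 1.92% were called as higher. Unless a mouse block is named, limma compared the sides without pairing them by mouse. Its p-values therefore do not measure the spread of the within-mouse differences given below. Genes entered a test with at least 1 TPM in 47% of its samples. *Artn* entered none, *Olig1* entered only at day 7, where it passed through its lesioned samples alone, and *Gap43* entered at day 3, at day 7, and over all days.

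**Figure D1:**
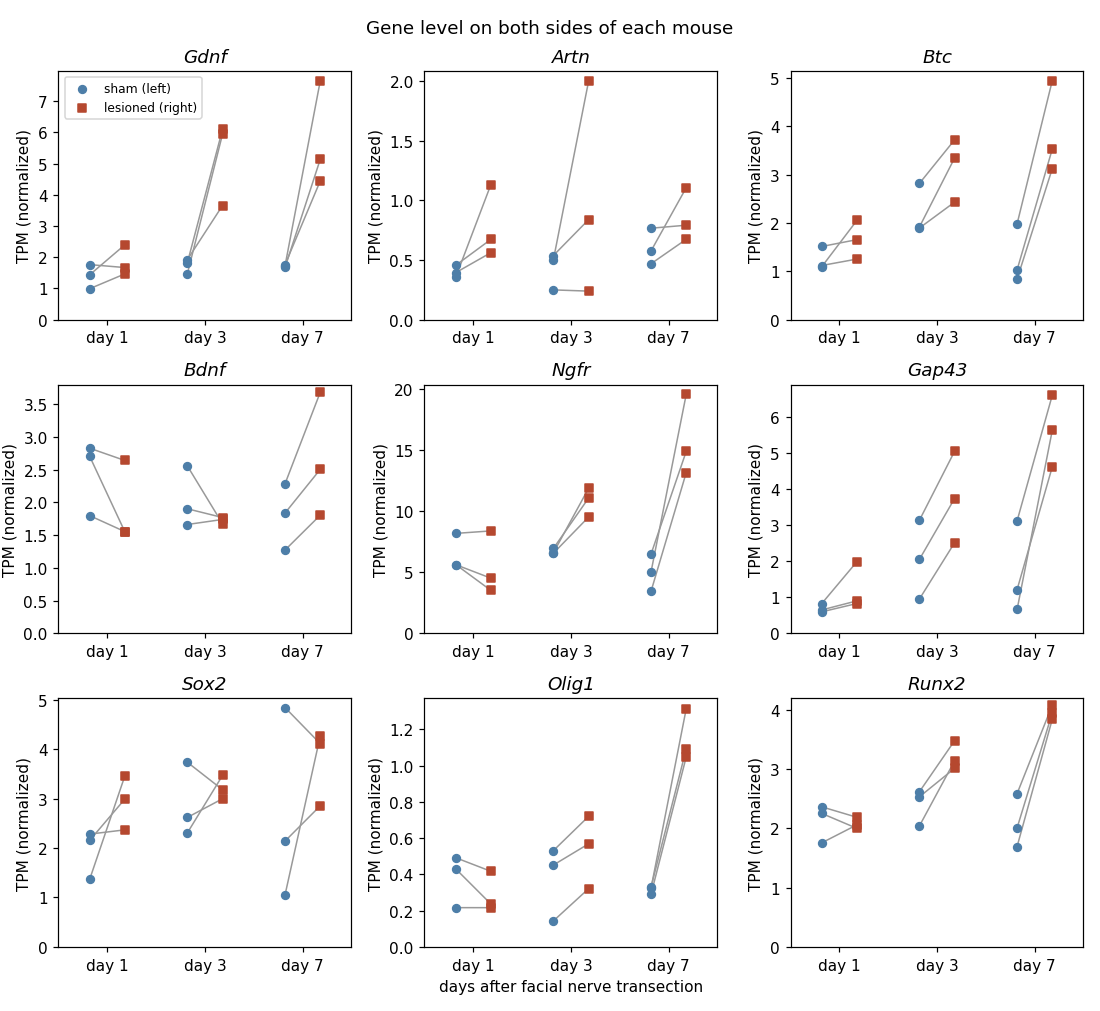
Level of each gene in TPM (vertical axis, linear, from 0) on the sham left side (circles) and the lesioned right side (squares) at day 1, day 3, and day 7, with a line joining the 2 sides of each mouse. *Ngfr* on the lesioned side lies between 3.50 and 8.36 at day 1 and between 13.1 and 19.5 at day 7, and *Gdnf* separates from sham at day 3.

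The promoters of *Ngfr*, *Btc*, and *Gdnf* are shown because *Ngfr* and *Gdnf* passed the test at day 7 and *Btc* passed it with the mouse as a block. Each run covers 250 bases before to 50 bases after a RefSeq start site (GRCm38.p6), written 5′ to 3′ on the gene's strand, and capitals mark the E-box letters CAGCTG, where helix-loop-helix factors such as MyoD can bind. The *Ngfr* window is chr11:95587649-95587948 and the *Btc* window is chr5:91402945-91403244, both on the minus strand. The *Gdnf* window is chr15:7809798-7810097 on the plus strand, the first of 2 windows listed for that gene. It ends before base 7810846, where the 1 *Gdnf* transcript measured here starts, and the second window, chr15:7813477-7813776, lies inside the gene. Neither window is therefore centered on the start of that transcript.
Ngfr: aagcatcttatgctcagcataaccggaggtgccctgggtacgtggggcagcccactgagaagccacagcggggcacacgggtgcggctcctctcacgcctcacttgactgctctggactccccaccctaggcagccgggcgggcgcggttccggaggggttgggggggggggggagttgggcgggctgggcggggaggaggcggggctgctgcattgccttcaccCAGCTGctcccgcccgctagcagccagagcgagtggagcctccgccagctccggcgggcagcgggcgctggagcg
Btc: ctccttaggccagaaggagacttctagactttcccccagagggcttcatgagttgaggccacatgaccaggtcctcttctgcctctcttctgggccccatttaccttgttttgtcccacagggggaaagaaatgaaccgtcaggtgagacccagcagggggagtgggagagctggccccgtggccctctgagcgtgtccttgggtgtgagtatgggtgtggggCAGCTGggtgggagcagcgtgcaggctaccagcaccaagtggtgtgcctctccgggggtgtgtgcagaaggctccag
Gdnf: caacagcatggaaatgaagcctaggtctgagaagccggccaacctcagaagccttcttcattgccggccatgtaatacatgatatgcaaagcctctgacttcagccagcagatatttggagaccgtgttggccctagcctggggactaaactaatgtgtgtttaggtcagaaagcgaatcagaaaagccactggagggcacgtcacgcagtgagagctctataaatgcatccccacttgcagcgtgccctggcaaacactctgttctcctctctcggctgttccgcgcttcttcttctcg
Counting the start site as 0, the first base of CAGCTG lies at position -25 in *Ngfr* and at position -27 in *Btc*. Both strands of all windows were searched for these letters and for TGANTCA, where N is any base, and no window held both. TGANTCA is looser than the AP-1 site TGA(C/G)TCA, where Jun and Fos can bind. Of 32851 mouse promoter windows of this length, 16.3% held CAGCTG and 7.81% held TGANTCA. Windows were listed for 7 of the 9 genes, all but *Gap43* and *Olig1*. CAGCTG was found for 4 of the 7, *Ngfr*, *Btc*, *Artn*, and *Bdnf*, and TGANTCA for 1, *Bdnf*, which has 7 windows. The *Bdnf* match reads TGAATCA, which is not the AP-1 site. Counted by window, as the background is, CAGCTG was in 4 of 14 (28.6%) and TGANTCA in 1 of 14. A match of letters is a description of the sequence and not a binding site.

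*Gdnf* (chromosome 15, 7810846 to 7837575, plus strand) encodes glial cell line-derived neurotrophic factor, which keeps motor neurons alive. At day 1 the 3 mice had 1.76, 1.43, and 0.989 TPM on the sham side and 1.67, 2.40, and 1.46 TPM on the lesioned side, and the sides overlapped. At day 3 sham was 1.82, 1.47, and 1.92 TPM and lesioned was 6.09, 5.94, and 3.65 TPM. At day 7 sham was 1.76, 1.67, and 1.72 TPM and lesioned was 4.44, 5.13, and 7.64 TPM. From day 3 every lesioned sample lay above every sham sample, and the sham samples of day 7 lay close together. The within-mouse difference at day 3 was 1.33 ± 0.49 (SD, n = 3, log2), with a limma adjusted p of 0.051. At day 7 *Gdnf* rose by 1.46 with a standard error of 0.22 on the log2 scale (limma, adjusted p = 0.028). The call at day 7 was lost when any 1 of the 3 mice was left out, at adjusted p of 0.237, 0.357, and 0.0918 without mouse 1, 2, and 3, with the difference staying between 1.25 and 1.62. Over all 9 mice *Gdnf* rose by 1.03 with a standard error of 0.18 (limma, adjusted p = 0.0034), and this call held without each mouse in turn, at adjusted p of 0.00060 to 0.021.

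*Artn* (chromosome 4, 117926162 to 117929763, minus strand) encodes artemin, a relative of GDNF that acts on sensory and sympathetic neurons. It was near the lower end of what these libraries could measure, with an estimated 6 to 46 reads per sample. At day 1 sham was 0.456, 0.356, and 0.394 TPM and lesioned was 0.673, 1.13, and 0.562 TPM. At day 3 sham was 0.249, 0.538, and 0.503 TPM and lesioned was 0.239, 0.838, and 2.00 TPM. At day 7 sham was 0.767, 0.577, and 0.469 TPM and lesioned was 0.792, 1.11, and 0.674 TPM. The sides were apart only at day 1, and at day 3 mouse 3 was far above the other two lesioned samples while mouse 1 did not differ between sides. The within-mouse log2 difference was 0.49 ± 0.38 at day 1, 0.56 ± 0.69 at day 3, and 0.29 ± 0.28 at day 7 (SD, n = 3). When all genes above 0 TPM were tested, the limma adjusted p of *Artn* was 0.276 over all days and at least 0.717 at each day.

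*Btc* (chromosome 5, 91357261 to 91402994, minus strand) encodes betacellulin. The 3 mice of day 1 had 1.09, 1.51, and 1.12 TPM on the sham side and 2.05, 1.65, and 1.25 TPM on the lesioned side. The 3 mice of day 3 had 2.82, 1.92, and 1.89 TPM on the sham side and 3.72, 3.34, and 2.43 TPM on the lesioned side. The 3 mice of day 7 had 1.03, 0.839, and 1.98 TPM on the sham side and 3.53, 3.12, and 4.94 TPM on the lesioned side. The lesioned side was the higher one in 9 of 9 mice, and the sides overlapped at day 1 and day 3 but not at day 7. Mouse 1 of day 3 had more *Btc* on its sham side than mouse 3 had on its lesioned side. The log2 difference at day 7 was 1.32 with a standard error of 0.29 and a limma adjusted p of 0.111. With the mouse as a block, which compares the 2 sides of the same animal, the adjusted p was 0.034 (2.17% of genes were called in that fit). Over all days *Btc* rose by 0.69 with a standard error of 0.18 (limma, adjusted p = 0.042). That call was lost without mouse 1 or mouse 2 of day 1 and without any mouse of day 3 or day 7, at adjusted p of 0.0515 to 0.152.

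*Bdnf* (chromosome 2, 109674700 to 109727007, plus strand) encodes brain-derived neurotrophic factor. Sham samples of day 1 were at 2.83, 2.70, and 1.80 TPM, and the lesioned ones at 2.64, 1.55, and 1.55 TPM. Sham samples of day 3 were at 1.66, 2.56, and 1.90 TPM, and the lesioned ones at 1.74, 1.67, and 1.77 TPM. Sham samples of day 7 were at 1.27, 1.84, and 2.28 TPM, and the lesioned ones at 1.80, 2.50, and 3.68 TPM. The lesioned side was the lower one in 3 of 3 mice at day 1 and the higher one in 3 of 3 at day 7, and the sides overlapped at each day. The within-mouse log2 difference was -0.30 ± 0.30 at day 1, -0.17 ± 0.28 at day 3, and 0.44 ± 0.12 at day 7 (SD, n = 3). Its limma adjusted p was 0.999, 0.759, and 0.619 on these days. The change in the difference from day 1 to day 7 was 0.74 with a 95% interval from -0.02 to 1.50 and a limma adjusted p of 0.718.

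*Ngfr* (chromosome 11, 95568818 to 95587735, minus strand) encodes the p75 neurotrophin receptor, a widely used marker of Schwann cells that have left the myelinating state, which is also made by other skin cells and by regenerating muscle. At day 1 sham was 8.16, 5.60, and 5.61 TPM and lesioned was 8.36, 4.50, and 3.50 TPM. At day 3 sham was 6.54, 6.58, and 6.93 TPM and lesioned was 9.50, 11.8, and 11.05 TPM. At day 7 sham was 6.48, 5.03, and 3.44 TPM and lesioned was 14.9, 19.5, and 13.1 TPM. The sides overlapped at day 1, where 2 of 3 mice were lower on the lesioned side, and every lesioned sample was above every sham sample at day 3 and at day 7. The log2 difference was -0.29 ± 0.32 at day 1, 0.65 ± 0.15 at day 3, and 1.60 ± 0.40 at day 7 (SD, n = 3). The limma adjusted p was 0.059 at day 3, and at day 7 *Ngfr* rose with an adjusted p of 0.031. Without mouse 1, 2, or 3 of day 7 the adjusted p became 0.227, 0.363, and 0.0658, with a difference between 1.47 and 1.82. Over all days *Ngfr* did not pass (log2 difference 0.65, limma adjusted p = 0.175).

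*Gap43* (chromosome 16, 42248442 to 42340651, minus strand) encodes growth-associated protein 43, found in growth cones of regrowing axons and in Schwann cells without axon contact. The 3 mice of day 1 had 0.646, 0.824, and 0.594 TPM on the sham side and 0.898, 1.99, and 0.825 TPM on the lesioned side. The 3 mice of day 3 had 0.949, 3.13, and 2.05 TPM on the sham side and 2.51, 5.05, and 3.74 TPM on the lesioned side. The 3 mice of day 7 had 0.659, 1.21, and 3.12 TPM on the sham side and 5.62, 4.61, and 6.60 TPM on the lesioned side. The lesioned side was higher in 9 of 9 mice, and the sides were apart at day 1 and day 7 and overlapped at day 3. At day 1 they were apart only between 0.824 TPM, the highest sham value, and 0.825 TPM, the lowest lesioned one. On the sham side the samples of a day lay far apart, with mouse 2 of day 3 and mouse 3 of day 7 highest. The log2 difference was 0.49 ± 0.36 at day 1, 0.80 ± 0.23 at day 3, and 1.65 ± 0.72 at day 7 (SD, n = 3). The limma adjusted p was 0.415 at day 3 and 0.147 at day 7. Over all days *Gap43* rose by 0.98 with a standard error of 0.25 (limma, adjusted p = 0.042). This call was lost without mouse 2 of day 1 and without any mouse of day 3 or day 7, at adjusted p of 0.0559 to 0.122. An estimated 7 to 86 reads per sample stood behind *Gap43*.

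*Sox2* (chromosome 3, 34650405 to 34652461, plus strand) encodes a transcription factor that holds Schwann cells in an immature state and is also present in dermal papilla and Merkel cells of the whisker follicle. At day 1 sham was 2.28, 2.16, and 1.37 TPM and lesioned was 2.37, 2.99, and 3.46 TPM. At day 3 sham was 2.31, 2.62, and 3.74 TPM and lesioned was 3.47, 3.00, and 3.18 TPM. At day 7 sham was 1.05, 4.84, and 2.14 TPM and lesioned was 4.26, 4.11, and 2.85 TPM. The lesioned samples of day 1 lay above the sham samples, and at day 3 and day 7 the sides overlapped, with 1 mouse lower on the lesioned side on each of those days. The sham side of day 7 spanned the whole range of the gene, so the difference there was 0.58 ± 0.94 (SD, n = 3, log2). The limma adjusted p was 0.999 at day 1, 0.785 at day 3, and 0.667 at day 7.

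*Olig1* (chromosome 16, 91269772 to 91271933, plus strand) encodes a basic helix-loop-helix factor best known from oligodendrocytes, the myelinating cells of the brain and spinal cord. It had the lowest level of the 9 genes, with an estimated 4 to 32 reads per sample. Sham samples of day 1 were at 0.492, 0.430, and 0.216 TPM, and the lesioned ones at 0.417, 0.236, and 0.216 TPM. Sham samples of day 3 were at 0.143, 0.451, and 0.531 TPM, and the lesioned ones at 0.321, 0.568, and 0.720 TPM. Sham samples of day 7 were at 0.291, 0.325, and 0.330 TPM, and the lesioned ones at 1.05, 1.31, and 1.09 TPM. The sides overlapped at day 1 and day 3, and at day 7 the 3 lesioned samples formed a group of their own above 1 TPM. The log2 difference at day 7 was 1.01 ± 0.11 (SD, n = 3) with a limma adjusted p of 0.168. When all genes above 0 TPM were tested, which called 0.969% of 21269 genes, its adjusted p at day 7 was 0.044, while those of *Gdnf* and *Ngfr* were 0.053 and 0.057.

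*Runx2* (chromosome 17, 44495987 to 44814797, minus strand) encodes a Runt-family transcription factor best known from bone formation, and it is also made by Schwann cells after injury. On day 1 the values were 1.75, 2.36, and 2.25 TPM on the sham side and 2.06, 2.18, and 2.00 TPM on the lesioned side. On day 3 the values were 2.61, 2.53, and 2.04 TPM on the sham side and 3.47, 3.01, and 3.14 TPM on the lesioned side. On day 7 the values were 1.69, 2.01, and 2.58 TPM on the sham side and 3.84, 3.94, and 4.07 TPM on the lesioned side. The sides were apart at day 3 and day 7, and the lesioned samples of day 7 differed from each other by little. The log2 difference was -0.02 ± 0.17 at day 1, 0.36 ± 0.15 at day 3, and 0.79 ± 0.21 at day 7 (SD, n = 3). The limma adjusted p was 0.999, 0.359, and 0.123.

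**Figure D2:**
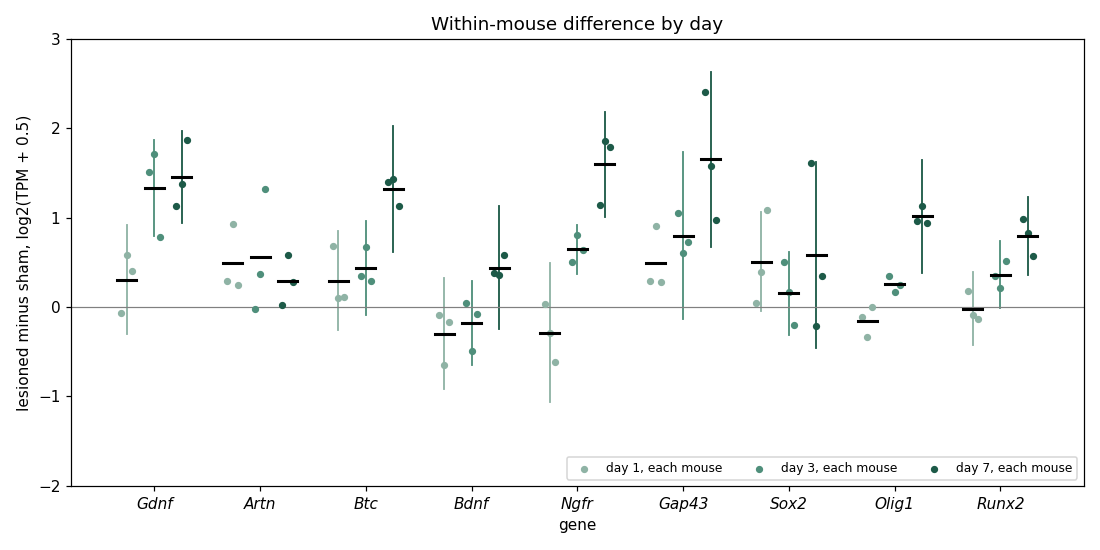
Difference between the lesioned and the sham side of each mouse in log2(TPM + 0.5) (vertical axis) for each gene (horizontal axis) at day 1, day 3, and day 7. Points are mice, black bars are means of 3 mice, and vertical lines are 95% intervals of limma where the gene entered the test. Those intervals come from fits that did not pair the sides of a mouse, so they do not measure the spread of the points. *Ngfr* runs from -0.29 at day 1 to 1.60 at day 7, and the 3 means of *Artn* lie between 0.29 and 0.56.

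The order of onset was described by the first day on which every lesioned sample lay above every sham sample. That day was day 1 for *Artn*, *Sox2*, and *Gap43*, day 3 for *Gdnf*, *Ngfr*, and *Runx2*, and day 7 for *Btc* and *Olig1*, and *Bdnf* had none. On day 1 the highest sham sample of *Gap43* had 0.824 TPM and the lowest lesioned one 0.825 TPM. *Artn* and *Gap43* rested on few reads, an estimated 6 to 46 and 7 to 86 per sample over all days. Only *Gdnf*, *Ngfr*, and *Runx2* then stayed apart on each later day. Over all 9 genes, the sides were apart for 3 on each of days 1 and 3 and for 6 on day 7, each time with the lesioned side above. Over all genes tested, the lesioned samples were all above the sham samples for 5.61% on day 1, 11.7% on day 3, and 10.6% on day 7. Such shares cover only genes that reached the minimum level for a test, while the counts cover all 9 genes. *Artn* was below that level on every day, *Gap43* on day 1, and *Olig1* on days 1 and 3. On day 7 *Olig1* reached that level through its lesioned samples alone. The lesioned side was higher in every mouse for 4, 6, and 8 of the 9 genes on days 1, 3, and 7, against 15.1%, 20.6%, and 24.9% of all genes tested. *Btc* and *Gap43* were higher in all 9 mice, which held for 1.94% of genes. The 9 genes were chosen with earlier results of these data known, so these counts and shares are a description and not a test of the set.

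Whether the difference itself grew between days was tested as an interaction over all 18 samples. None of the 9 genes passed for day 3 minus day 1, day 7 minus day 1, or day 7 minus day 3, where 0.122%, 0.163%, and 0% of genes were called and 1360, 1054, and 1013 had an unadjusted p under 0.05. The largest change was that of *Ngfr*, 1.88 from day 1 to day 7 with a 95% interval from 1.08 to 2.68 (limma, adjusted p = 0.070). When the mouse was a block this p became 0.030 in a fit that called 0.142% of genes. Without mouse 1 of day 1, and with no block, this p was 0.015. With at least 1 other mouse left out, none of the 9 genes passed. For *Gdnf* the difference changed by 1.02 from day 1 to day 3 and by 0.13 from day 3 to day 7 (95% interval from -0.57 to 0.83). For *Btc* it changed by 0.14 from day 1 to day 3 and by 0.89 from day 3 to day 7 (95% interval from 0.13 to 1.64), neither past the threshold, with limma adjusted p of 0.969 and 0.664. In an exact two-sided sign-flip permutation test over the 9 mice, p was 0.0039 for *Btc* and *Gap43*, the smallest that 9 pairs allow, and 0.0078 for *Gdnf*. The same permutation test gave 0.023 for *Runx2*, 0.059 for *Ngfr* and *Sox2*, and 0.95 for *Bdnf*. After adjustment over 14757 genes no gene in the table passed this permutation test (0% called, 2398 genes with an unadjusted p under 0.05).

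Several of these genes are the sum of more than 1 transcript. *Ngfr*, *Gdnf*, *Sox2*, and *Olig1* each had 1 transcript in the table, and Btc-201 carried 96.0% of *Btc*. The protein-coding Gap43-201 carried 58.5% of *Gap43*, and it had 1.00 ± 0.63 TPM on the sham side and 3.32 ± 1.25 TPM on the lesioned side at day 7 (SD, n = 3). The processed transcript Gap43-202 went from 0.661 ± 0.699 to 2.29 ± 0.66 TPM, so both contributed. Of *Bdnf*, 59.1% was Bdnf-211, at 0.655 ± 0.543 TPM on the sham side and 2.02 ± 1.04 TPM on the lesioned side at day 7, while Bdnf-205 was 0.531 ± 0.338 and 0.342 ± 0.359 TPM. At day 3 the lesioned level of *Artn* was shared between the protein-coding Artn-201, at 0.516 ± 0.354 TPM, and the short processed transcript Artn-204, at 0.509 ± 0.545 TPM. Artn-204 was listed at 0 in all 9 sham samples and in the lesioned samples of day 7. It is 405 bases long, and the whole of *Artn* had an estimated 6 to 46 reads per sample. Runx2-202 carried 74.5% of *Runx2* and had 1.38 ± 0.69 TPM on the sham side and 3.06 ± 0.58 TPM on the lesioned side at day 7. The assignment of reads among transcripts that share exons is an estimate, and no transcript was tested alone.

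**Figure D3:**
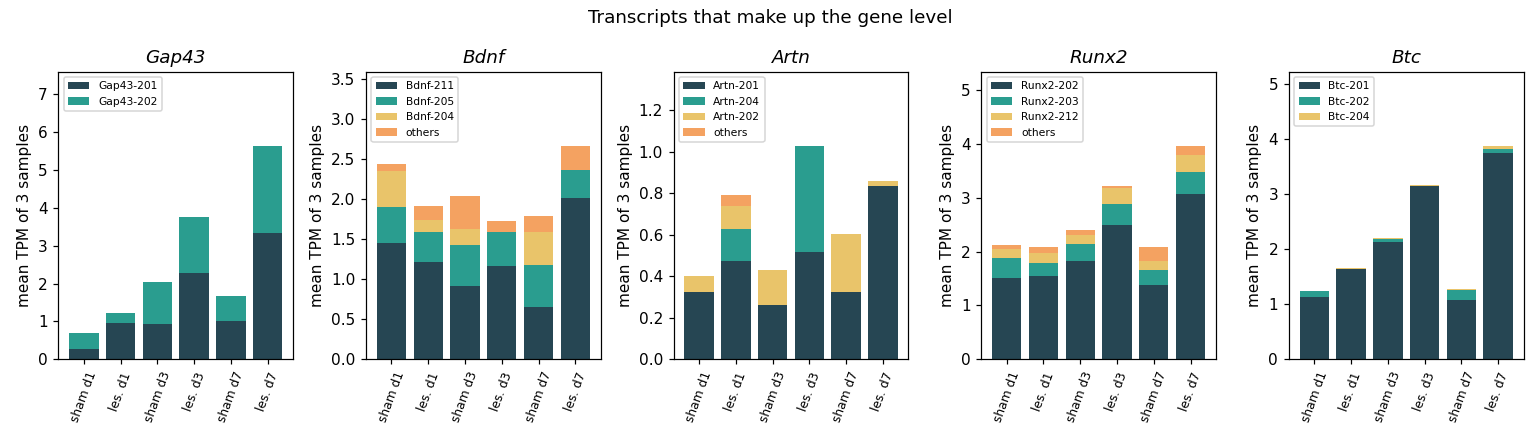
Mean TPM of 3 samples (vertical axis, stacked bars from 0) of the transcripts of *Gap43*, *Bdnf*, *Artn*, *Runx2*, and *Btc*, on the sham and the lesioned (les.) side at day 1, day 3, and day 7 (d1, d3, d7). Gap43-201 and Gap43-202 are both taller on the lesioned side at day 7. Artn-204 appears on the lesioned side alone, at day 1 and day 3 but not at day 7.

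On the sham side *Ngfr* had the highest level of the 9 genes and *Artn* and *Olig1* the lowest. Over 9 sham samples *Ngfr* had 6.04 ± 1.33 TPM (SD), *Sox2* 2.50 ± 1.16, *Runx2* 2.20 ± 0.35, *Bdnf* 2.09 ± 0.53, *Gdnf* 1.62 ± 0.28, *Btc* 1.58 ± 0.63, and *Gap43* 1.47 ± 1.04. *Artn* had 0.479 ± 0.147 TPM and *Olig1* had 0.357 ± 0.130 TPM. *Ngfr* was above *Sox2* in 9 of 9 samples and *Gap43* was above *Artn* in 8 of 9, and all other neighbors in this order changed places in at least 3 samples. The 6 genes from *Sox2* to *Gap43* therefore could not be ranked beyond their spread. TPM is scaled by transcript length, which is what allows levels to be set side by side between genes.

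The receptors and coreceptors for these ligands and for p75 formed a list of 17 genes, of which 14 to 15 entered a test at each day. At day 3, 1 rose, *Ncam1* (limma, adjusted p = 0.024, and 0.059 with a mouse block), and at day 7, 2 rose, *Ncam1* and *Gfra4*, with none lower. The median log2 difference of the list at day 7 was 0.17, where that of all genes tested was 0.039. *Ncam1*, a cell adhesion molecule that can serve GDNF as a receptor and is switched on in denervated muscle fibers, had 7.61 ± 5.73 TPM on the sham side and 90.4 ± 28.6 TPM on the lesioned side at day 7 (SD, n = 3, limma adjusted p = 0.015). *Gfra4*, a coreceptor for the GDNF relative persephin, went from 3.47 ± 0.94 to 14.5 ± 4.6 TPM (adjusted p = 0.029). The GDNF coreceptor *Gfra1* had 8.43 ± 1.43 and 14.9 ± 2.9 TPM, with the sides apart and a limma adjusted p of 0.128, and *Ret* had 5.46 ± 1.50 and 4.58 ± 1.06 TPM. The artemin coreceptor *Gfra3* had 2.52 ± 0.45 and 2.23 ± 0.18 TPM, and the betacellulin receptor *Egfr* had 13.3 ± 2.9 and 12.6 ± 1.5 TPM, with limma adjusted p of 0.823 and 0.938.

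Of 24 other neurotrophic ligands, 21 entered the test at each day, and 1 rose at day 3 and at day 7. It was *Ctf1*, which encodes cardiotrophin 1 and had 10.7 ± 0.5 and 20.8 ± 3.1 TPM at day 3 and 9.67 ± 0.81 and 16.9 ± 1.0 TPM at day 7 (SD, n = 3, limma adjusted p of 0.024 and 0.030). Over all days *Ctf1* rose and the angiogenic factor *Vegfa* fell by 0.74 on the log2 scale (limma, adjusted p = 0.033). With a mouse block *Vegfa* also fell at day 7 (limma, adjusted p = 0.032), and *Manf* rose by 0.24 over all days (adjusted p = 0.035). The median of the 21 ligands at day 7 was 0.0084. None of the 6 other EGF-family ligands, led by *Egf* and *Tgfa*, passed at any day, with a median of 0.21 at day 7, and *Hbegf* passed over all days with a mouse block alone (limma, adjusted p = 0.038).

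Of 20 further genes known from repair Schwann cells, 17 entered the test at day 7 and 4 rose, with none lower. They were *Ncam1*, which is also in the receptor list above, *Atf3*, *Jun*, and *Ccn1*. Of all genes tested at day 7, 1.01% were called as higher. *Jun*, the transcription factor that drives the repair state in Schwann cells, had 18.4 ± 1.4 and 34.6 ± 2.7 TPM at day 7 (SD, n = 3, limma adjusted p = 0.016). *Atf3*, a stress-induced partner of Jun, had 7.34 ± 1.50 and 24.3 ± 2.5 TPM (adjusted p = 0.0071). At day 3 the adjusted p was 0.052 for *Jun* and 0.070 for *Atf3*, and it was 0.018 and 0.015 with a mouse block (limma, 1.45% of genes called). The median of the 17 genes at day 7 was 0.19. *Jun* and *Atf3* are also induced in other stressed cells, muscle fibers among them. *Shh*, sonic hedgehog, a signal of repair Schwann cells and of hair follicles, had 1.41 ± 1.06 and 1.38 ± 0.31 TPM.

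Markers of the cells that the biopsies could hold were summed for each sample. Of 18 Schwann lineage markers 0 passed at any day, in either direction, and their median log2 difference was -0.62 at day 7. With a mouse block *Cldn19*, a tight junction gene of myelinating Schwann cells, fell by 1.21 at day 7 (limma, adjusted p = 0.032). Their summed level at day 7 was 579 to 1021 TPM on the sham side and 493 to 507 TPM on the lesioned side, so it was not higher where *Ngfr*, *Gdnf*, *Btc*, and *Gap43* were. *Sox10*, the factor that defines the lineage, was present in every sample and had 6.96 ± 1.41 and 8.44 ± 2.53 TPM at day 7, and *Cdh19*, found in Schwann cell precursors and nonmyelinating cells, had 4.92 ± 2.09 and 9.70 ± 1.45 TPM (limma adjusted p of 0.741 and 0.250). In bulk tissue, fewer or more cells of a type and less or more RNA per cell cannot be told apart.

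The summed level of 5 satellite cell markers, the stem cells of muscle, was higher on the lesioned side of every mouse, though not each marker was. They summed to 1.55 to 7.30 TPM on the sham side and 16.2 to 26.8 TPM on the lesioned side at day 1, to 6.88 to 8.52 and 52.9 to 136 TPM at day 3, and to 9.57 to 15.8 and 29.8 to 36.4 TPM at day 7. On the lesioned side *Myod1* carried most of the sum, and it rose at day 3 and day 7. *Cdh15* rose at day 3 but had 2.04 TPM on the sham side and 1.38 TPM on the lesioned side at day 1. The defining marker *Pax7* stayed at or below 0.285 TPM in all 18 samples, with the sides overlapping on each day. Their part in the results above was not tested. As a check of the lesion, the denervation genes *Myog*, *Chrna1*, *Chrnd*, and *Chrng* all rose at day 3 and at day 7, with *Myog* at 4.65 ± 2.15 and 181 ± 17 TPM at day 3 (SD, n = 3, limma adjusted p = 0.00089). The 8 macrophage markers summed to 194 to 547 TPM on the sham side and 384 to 793 TPM on the lesioned side at day 7, each of the 8 being higher on average, and none passed without a mouse block, which gave *Lyz2* an adjusted p of 0.037 (limma). Of 7 neuron markers, *Uchl1* alone rose at day 7, from 7.13 ± 1.83 to 19.2 ± 4.2 TPM (limma, adjusted p = 0.041, and 0.064 with a mouse block), and the axonal neurofilament genes *Nefl* and *Nefm* stayed at or below 0.117 and 0.209 TPM in all samples. Of 10 muscle fiber markers, 1 passed at day 7, *Ckm*, which fell by 1.12 on the log2 scale (limma, adjusted p = 0.010), and with a mouse block *Pvalb* fell by 0.68 (adjusted p = 0.038). Of 6 Merkel cell markers, *Krt18* rose over all days (limma, adjusted p = 0.029, and 0.062 with a mouse block, where 3.5% of genes were called). No marker of fibroblasts (6), keratinocytes (8), dermal papilla (6), melanocytes (6), endothelium (5), or the cell cycle (5) passed at any day.

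**Figure D4:**
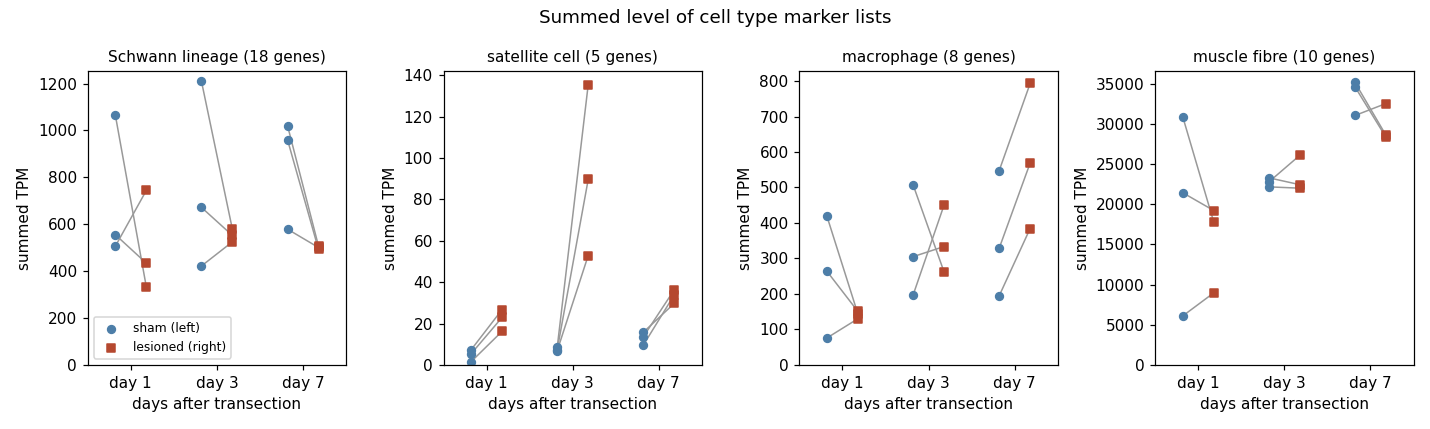
Summed TPM (vertical axes, linear, from 0) of 4 lists of cell type markers on the sham left side (circles) and the lesioned right side (squares), with a line joining the 2 sides of each mouse. The sum of satellite cell markers is higher on every lesioned side, with a peak at day 3, and *Myod1* carries most of it there. Schwann lineage markers on the lesioned side of day 7 lie between 493 and 507 TPM, below every sham sample of that day.

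The 9 within-mouse differences of each gene were compared with those of 14750 other genes by Pearson's r, as a description over 9 pairs of samples. The 2 most alike were *Agrp* (0.98) and *Serpinb1a* (0.98) for *Ngfr*, *Stim2* (0.97) and *1700001J03Rik* (0.96) for *Gdnf*, *Glmp* (0.96) and *Tex261* (0.96) for *Btc*, and *Tram1* (0.94) and *Tubb2b* (0.92) for *Gap43*. For *Runx2* they were *Ankib1* (0.96) and *Zfp951* (0.96), for *Sox2* they were *Shtn1* (0.96) and *Cd9* (0.95), and for *Bdnf* they were *Gm47355* (0.96) and *Rgs14* (0.94). The best match was picked from all of these genes, so its r is a maximum. Among the 7 of the 9 genes that were compared, all but *Artn* and *Olig1*, *Ngfr* was most alike to *Btc* (0.86) and *Runx2* (0.85), and *Sox2* least, at -0.21. The differences of all genes come from the same libraries. Whether the mice of a day were handled together is not given in the sources used here.

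The libraries held an estimated 10300000 to 32000000 reads, with a median of 14200000, judged from steps of whole reads in low values. Reads per sample behind *Ngfr* were estimated at 119 to 844, and behind *Gdnf*, *Btc*, *Sox2*, *Runx2*, and *Bdnf* at 23 to 366. Mouse 1 of day 1 stood apart on both sides, with 10 muscle fiber markers summing to 6095 and 8969 TPM where the other 16 samples had at least 17784 TPM. Without that mouse no gene of the 9 passed at day 1, *Gdnf* and *Gap43* passed over all days, and *Btc* did not.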

How the data were processed

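RNA was measured in skin and muscle biopsies of the whisker pad from 9 mice, 18 samples in 6 groups of 3. The authors base-called reads with bcl2fastq 2.17.1.14, removed duplicate reads, trimmed adapters, and quantified Ensembl GRCm38 transcripts with kallisto 0.43.1 before loading them into sleuth, per the methods and the submitters' processing notes. Removing duplicates before quantification can lower the values of the most abundant transcripts. The deposited signal values are TPM that were normalized between samples, with column sums of 833186 to 1143839. The tests had been chosen for plain TPM and were kept. No column was left without a sample. The columns of day 7 carried other mouse numbers than the sample titles. They were joined to samples by day, side, and the sequencing number that both share.

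Transcripts were matched to GENCODE M21 (98.5% matched) and summed per gene. The tests used log2(TPM + 0.5) of genes with at least 1 TPM in 47% of a comparison's samples, so fold changes of low genes are understated. limma 3.58.1 (R 4.3.3), with its prior variance trended on level and p-values adjusted by Benjamini-Hochberg over all genes tested, compared sides at each day alone, over all days with day as a covariate, and as interactions between days, without the mouse as a block. Differences within mice were also tested by an exact sign-flip permutation test. The scripts were tested on simulated data. Both samples of a mouse come from the same animal, and their deviations from the group means correlated at 0.131 to 0.511 in the 9 mice, so fits with the mouse as a block were made too. Depth was estimated from low values of long transcripts from genes with a single transcript, of which 69.8% to 84.4% per sample lay within 0.1 of a whole read where 20% would by even spread, with a fragment length of 200 bases assumed. The read numbers are estimates, and no count test was run on them.

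The 9 genes and the 17 lists of other genes were chosen with earlier results of these data known. The rule for named genes gave the 9 genes in every sample, genes of other lists that passed, or the most abundant where none did, and the most alike genes by Pearson's r. *Sox10*, *Cdh19*, *Ret*, *Gfra1*, *Gfra3*, *Egfr*, *Shh*, *Pax7*, *Nefl*, *Nefm*, *Manf*, *Hbegf*, *Cldn19*, *Lyz2*, and *Pvalb* were named after their values were seen. Single values of some list genes are not reported here. Promoter sequences came from a RefSeq table (GRCm38.p6). Alternatives in pseudocount, filter, scaling, transcripts, variance trend, samples in the fit, and left-out mice were tried. Figures used Python 3.11.15 and matplotlib 3.10.9.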

Additional observations from a re-analysis of the deposited data

Results flagged for a closer look

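For *Olig1* no mouse of day 1 was higher on the lesioned side, while every mouse of day 3 and of day 7 was. The mice of each day were different animals. The mean within-mouse log2 difference, lesioned minus sham, on days 1, 3, and 7 was -0.15, 0.25, and 1.01, with 0 of 3, 3 of 3, and 3 of 3 mice higher on the lesioned side. In mouse 3 of day 1 the sides differed by only -0.000168 TPM. *Olig1* did not reach the minimum level over all samples, so the change between days was not tested there. When all genes above 0 TPM were tested, the change from day 1 to day 7 was 1.16 with a limma adjusted p of 0.185. For *Bdnf* the mean difference was -0.30 at day 1 and 0.44 at day 7, with 0 of 3 and 3 of 3 mice higher. The change between these days did not pass (limma, adjusted p = 0.718). Groups of 3 samples were too small for a search for outlying samples, and none of the 9 genes had a sample apart from the rest in its 9 sham values or its 9 within-mouse differences.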

How the results depend on the processing

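Of 840 single-gene values under another setting, 786 kept their direction and their side of the threshold, 13 passed and 26 ceased to pass in the same direction, and 15 changed direction. The count of genes that passed over all days went from 3 to 1 when all genes above 0 TPM were tested and to 0 at a minimum of 5 TPM, where 1 of the 9 genes was left, and lay between 1 and 3 without 1 mouse. At day 3 it went from 0 to 1, *Gdnf* each time, with a pseudocount of 0.1, equal column sums, protein-coding transcripts alone, or 1 fit of all 18 samples. At day 7 it went from 2 to 1 above 0 TPM (*Olig1*), to 1 at a minimum of 5 TPM (*Ngfr*), to 1 with equal sums (*Gdnf*), to 5 in 1 fit of all 18 samples (*Ngfr*, *Gdnf*, *Btc*, *Runx2*, and *Olig1*), and to 0 without any of the 3 mice. *Olig1* entered the day 7 test through its lesioned samples alone, also in the 1 fit of all 18 samples. The cause of these changes in the count was not tested, other than that fewer genes or samples entered some. With the mouse as a replicate block, the count of genes whose difference changed between days went from 0 to 1 (*Ngfr*, adjusted p 0.030), and without 1 mouse it lay between 0 and 1. The block also added *Btc* at day 7 and changed no other call of the 9 genes. The day 1 count and the permutation count stayed at 0 under every setting run.

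Leaving out 1 mouse turned the direction of some differences, given here as the lowest and highest value on the log2 scale. They were *Bdnf* over all days (-0.084 to 0.070, the same in the permutation test), *Runx2* at day 1 (-0.115 to 0.045), *Sox2* at day 3 (-0.019 to 0.33), and *Bdnf* for day 3 minus day 1 (-0.052 to 0.28). They also were *Sox2* for day 7 minus day 1 (-0.44 to 0.47) and for day 7 minus day 3 (-0.088 to 0.83), and *Gdnf* for day 7 minus day 3 (-0.15 to 0.32). None of these passed the threshold. An estimated 4 to 86 reads per sample stood behind *Olig1*, *Artn*, and *Gap43*, and the smallest difference that could be detected at this depth was not tested.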
